A study of Homo sapiens with 14 samples.

Results

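RPPH1, RMRP, RN7SK, RN7SL1, TERC and the vault RNAs VTRNA1-1, VTRNA1-2 and VTRNA1-3 are short, folded, noncoding RNAs that work inside ribonucleoprotein particles. Members were the rows of the table of RPKM (reads per kilobase of gene, scaled to the library's total) whose gene symbol is one of these 8 names, and 6 of the 8 had a row among 21574 rows; RN7SK and RN7SL1 were not analysed here. The study compared cells labelled HepG2, a human hepatoma line, that carried an siRNA against ADAR1 (siADAR1, here KD) with cells that carried a scrambled siRNA (control), with 48 hours of silencing according to the methods. All groups share the cell line and an siRNA transfection, which the labels and the methods call stable, and for which the methods also name nucleofection. PARS-seq (parallel analysis of RNA structure: RNA is refolded and cut by nuclease S1 where unpaired or by RNase V1 where paired) had 2 replicates per condition, each with 1 S1 and 1 V1 library, Ribo-seq (ribosome footprints) had 2 libraries per condition, and RNA-seq had 1 library per condition. The labels name a poly-A selection, and the mature forms of these RNAs carry no long poly-A tail.

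RNA polymerase III makes RPPH1, RMRP, 7SK, 7SL and the vault RNAs, whereas TERC is made by RNA polymerase II. RPPH1 is the catalytic RNA of RNase P, which trims the leader of tRNA precursors, and RMRP is its relative in RNase MRP, which acts on ribosomal RNA precursors. TERC carries the template that telomerase copies into telomere repeats, and the vault RNAs sit in the vault particle, a large cytoplasmic shell. Vault RNA genes have a promoter inside the transcribed sequence, with a box A and a box B element like those of tRNA genes, while RPPH1 and RMRP are driven by elements upstream of the start.

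The sequences below, from GENCODE transcripts lifted to GRCh37 (hg19, the build of the files) and read 5′ to 3′, show what the members have in common and how far reads can tell the vault RNAs apart. In the vault RNAs capitals mark the match to GTTCGANNC, a box B core searched on both strands; VTRNA2-1, a relative outside the main cluster, is shown for comparison.
VTRNA1-1 (chr5:140090860-140090958, plus strand): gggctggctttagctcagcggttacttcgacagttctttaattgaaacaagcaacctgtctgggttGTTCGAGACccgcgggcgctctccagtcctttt
VTRNA1-2 (chr5:140098510-140098598, plus strand): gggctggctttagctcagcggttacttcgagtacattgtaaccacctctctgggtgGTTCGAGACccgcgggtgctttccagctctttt
VTRNA1-3 (chr5:140105743-140105831, plus strand): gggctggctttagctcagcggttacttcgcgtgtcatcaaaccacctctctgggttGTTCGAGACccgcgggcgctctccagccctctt
VTRNA2-1 (chr5:135416159-135416286, minus strand): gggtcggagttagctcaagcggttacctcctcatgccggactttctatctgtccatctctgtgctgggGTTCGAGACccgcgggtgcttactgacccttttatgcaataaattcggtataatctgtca
Each of the 4 held 1 match, on the sense strand, against 0.332% of 6925 GENCODE transcripts of 80 to 140 bases with a match on either strand. VTRNA1-1 and VTRNA1-2 were 81.8% identical, VTRNA1-1 and VTRNA1-3 83.0%, and VTRNA1-2 and VTRNA1-3 87.8%. The first 29 bases are the same in all 3. Of the 70 windows of 30 bases in VTRNA1-1, about the length of a ribosome footprint, 1 was also in VTRNA1-2 and 5 were in VTRNA1-3, so most windows of that length tell VTRNA1-1 apart. A read that lies within the first 29 bases cannot be assigned to 1 of the 3. Where reads lie along these RNAs was not examined, and the authors kept uniquely mapped reads only. The cluster genes lie 7551 and 7144 bases from each other, and VTRNA1-1 starts 4588 bases beyond the end of ZMAT2.

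For TERC, a stretch of 90 bases near the 5′ end is given because it holds the telomere template; capitals mark the match to AACCCTAA, searched on both strands and found once, against 0.781% of 33930 GENCODE transcripts of 500 to 600 bases. For RMRP the 60 bases before the start are given because they lie in the gap of 272 bases between it and CCDC107, on the opposite strand; capitals mark the TATAA match, and 6.69% of 35116 RefSeq promoters have one on either strand in the same 60 bases.
TERC (chr3:169482752-169482841, minus strand): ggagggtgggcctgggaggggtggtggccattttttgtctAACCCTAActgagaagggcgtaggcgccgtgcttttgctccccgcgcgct
RMRP upstream (chr9:35658015-35658074, minus strand): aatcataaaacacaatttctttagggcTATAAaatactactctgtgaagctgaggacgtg
The RMRP transcript itself spans chr9:35657751-35658014, 264 bases on the minus strand, and TERC spans chr3:169482308-169482848, both without introns. No GRCh37 position or sequence was used for RPPH1.

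ADAR, the target of the siRNA, was checked first. In PARS-seq it was at 40.7 and 46.8 RPKM in control and at 15.1 and 15.1 RPKM in KD (log2 difference -1.47, adjusted p = 0.002 in the limma fit across all genes), and in RNA-seq it was at 54.8 in control and 15.4 in KD. In Ribo-seq it was at 43.6 and 55.5 RPKM in control, at 8.73 in KD replicate 1 and at 44.03 in the library labelled KD replicate 2, which lies within the control range. Markers of the labelled cell type were near 0: the summed RPKM of ALB, AFP, APOA1, APOB, TTR, SERPINA1, FGB and TF was at most 0.126 in any column, and 0 in every Ribo-seq column, whereas 8 markers of blood, endothelial and fibroblast cells summed to between 11.3 and 57.9 RPKM, most of it COL1A1. The cells are called by their label only. Read totals recovered from the RPKM steps were 40729941 and 30209865 for RNA-seq, between 995682 and 3322918 for Ribo-seq and between 49820958 and 89964977 for single PARS-seq libraries.

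RMRP was the most abundant member in PARS-seq. The authors' means over the S1 and V1 library were 3147 and 2997 RPKM in control and 3544 and 2512 RPKM in KD, which placed RMRP between the 5th and the 9th highest row of each column. The control values lie inside the KD values, and the log2 difference was -0.04 ± 0.24 (SE; adjusted p = 0.92, 95% interval -0.59 to 0.50). Its neighbour CCDC107, a protein-coding gene, was at 7.94 and 9.53 RPKM in control and at 9.90 and 11.99 RPKM in KD (adjusted p = 0.28).

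RPPH1 was the 1 member that passed the test in PARS-seq. It was at 302 and 539.8 RPKM in control and at 853 and 789 RPKM in KD, so both KD values lay above both control values. The log2 difference was 1.02 ± 0.28 (SE), a 2.03-fold rise on the log2(RPKM + 1) scale (adjusted p = 0.044, limma, Benjamini-Hochberg over 11151 genes) and it ranked 157th from the top. Among all genes tested 15.5% were called in either direction and 8.05% as higher in KD, so 1 of 6 members is near that background. The call rested on control replicate 1: without it the log2 difference was 0.60 (adjusted p = 0.16), and without control replicate 2 it was 1.44 (adjusted p = 3.4e-06). It was also lost with columns centred on their medians (log2 difference 0.98, adjusted p = 0.054) and with no filter on low values (adjusted p = 0.19). PARP2, the protein-coding gene beside RPPH1, was at 34.6 and 35.9 RPKM in control and at 36.7 and 38.7 RPKM in KD (adjusted p = 0.73). ZMAT2, beside VTRNA1-1, did not pass either (adjusted p = 0.58), nor did the genes listed as neighbours of the RNAs without a row. These were RPS29 for RN7SL1 (adjusted p = 0.39) and ICK and FBXO9 for RN7SK (adjusted p = 0.056 and 0.91). ICK and FBXO9 overlap each other, and the positions of RN7SL1 and RN7SK were not looked up here.

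TERC was far less abundant, at 9.05 and 9.92 RPKM in control and at 14.9 and 12.3 RPKM in KD. Its groups did not overlap, but the log2 difference of 0.47 ± 0.17 (SE) did not pass (adjusted p = 0.092). TERC did pass when the replicate number was fitted as a block, although the labels name no batch shared by a number. The vault RNAs were nearly level across the 4 columns. VTRNA1-1 was at 17.4 and 20.6 RPKM in control and at 17.9 and 20.1 RPKM in KD, with a log2 difference of 0.00 (95% interval -0.39 to 0.39). VTRNA1-2 was at 18.2 and 21.3 RPKM in control and at 17.8 and 20.8 RPKM in KD, with a log2 difference of -0.03 (95% interval -0.43 to 0.37). VTRNA1-3 was at 3.18 and 3.63 RPKM in control and at 3.93 and 4.18 RPKM in KD, with a log2 difference of 0.20 (adjusted p = 0.37). In all, 3 of 6 members (RPPH1, TERC and VTRNA1-3) had both KD values above both controls and none had both below, while the same held for 33.3% and 27.2% of all genes tested. The median log2 difference was 0.10 over the 6 members and 0.04 over all genes.

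**Figure D1:**
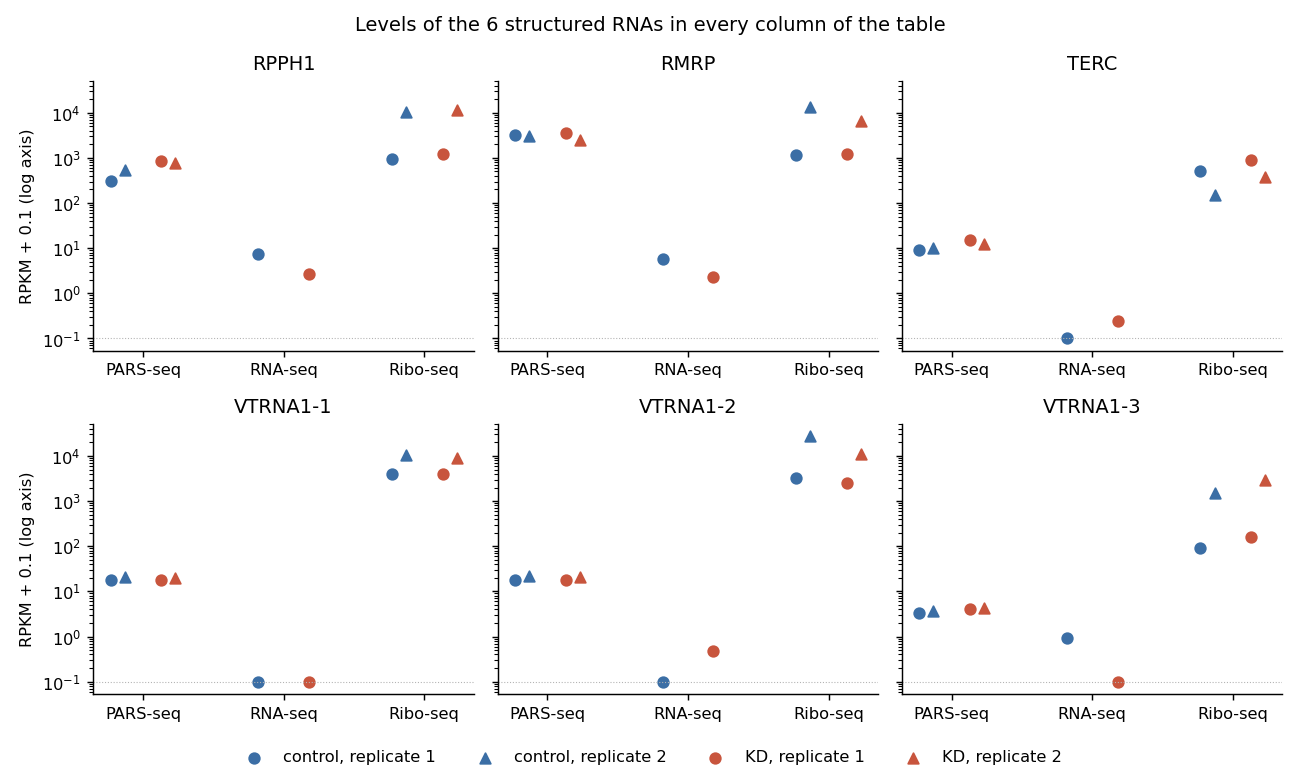
RPKM + 0.1 on a log axis for each member in PARS-seq, RNA-seq and Ribo-seq; blue is control, red is KD, circles are replicate 1 and triangles replicate 2, and the dotted line marks an RPKM of 0. PARS-seq points are the authors' mean over an S1 and a V1 library; every member is lowest in RNA-seq, and only RMRP has PARS-seq and Ribo-seq points that overlap.

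Each PARS-seq column is a mean, and for TERC and the vault RNAs 1 pair of read counts in the 2 libraries of a replicate gives that mean. For RPPH1 a single pair fitted only in control replicate 2, at 403 and 677 RPKM, and in KD replicate 1, at 604 and 1101 RPKM. The single libraries of these columns thus overlapped between control and KD, although the means did not. TERC had 564 and 581 reads over both libraries of the control replicates and 1122 and 677 reads in KD, and its RPKM differed between the 2 libraries of a replicate by 2.39- to 3.31-fold. VTRNA1-1 and VTRNA1-2 had between 219 and 273 reads per replicate, and VTRNA1-3 had between 39 and 57, so its values are the least precise. Between the libraries of a replicate VTRNA1-1 differed by 1.14- to 1.5-fold, VTRNA1-2 by 1.01- to 1.68-fold and VTRNA1-3 by 1.16- to 2.08-fold. The RPKM table does not name the enzyme of either library, and these libraries were not assigned to S1 or V1 here, so no paired or unpaired preference is given.

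In RNA-seq RPPH1 and RMRP were far below their PARS-seq levels, though above the column medians of 1.08 RPKM in control and 1.06 RPKM in KD, and TERC and the vault RNAs were at or near 0. RPPH1 was at 7.34 RPKM in control and 2.62 RPKM in KD, from 102 and 27 reads, and RMRP was at 5.68 and 2.22 RPKM, from 62 and 18 reads. The KD to control ratio was 0.357 for RPPH1 (95% interval 0.224 to 0.55, exact, counting error only) and 0.391 for RMRP (0.218 to 0.67). A ratio of at most 0.5 was reached by 1.95% of 10944 genes with a mean of at least 1 RPKM in RNA-seq. The ratio has no replicate check, and in PARS-seq RPPH1 moved the other way. PARS-seq over RNA-seq levels were 57.3 in control and 313 in KD for RPPH1, and 541 and 1362 for RMRP.

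TERC and the vault RNAs were at or below the 3 reads that a count of 0 allows. TERC had 0 reads in control and 2 in KD, VTRNA1-1 had 0 in both, VTRNA1-2 had 0 and 1, and VTRNA1-3 had 3 and 0. For VTRNA1-1 that limit is 0.752 RPKM in control and 1.01 RPKM in KD, well under its PARS-seq values. No KD to control ratio is given for these 4, whose differences were not detectable at this depth.

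In Ribo-seq VTRNA1-1 and VTRNA1-2 were among the highest rows of each column, while VTRNA1-3 ranked 788th in control replicate 1 and 363rd in KD replicate 1. VTRNA1-2 was at 3218 and 27003 RPKM in control and at 2540.5 and 11240.4 RPKM in KD, and in control replicate 2 it ranked 1st of all rows. VTRNA1-1 was at 3976 and 10686.5 RPKM in control and at 3916 and 9207 RPKM in KD, and ranked 3rd in both libraries of replicate 1. VTRNA1-3 was at 91.3 and 1512 RPKM in control and at 162 and 2962 RPKM in KD, and its value in control replicate 1 rested on 8 reads. Replicate 2 was the higher one in each of these pairs.

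RPPH1 was at 951 and 10414 RPKM in control and at 1234 and 11532 RPKM in KD. RMRP was at 1188 and 13391 RPKM in control and at 1190.2 and 6485 RPKM in KD. TERC went the other way between replicates, at 506 and 152 RPKM in control and at 905 and 377 RPKM in KD. The 6 members together took 0.155% and 1.08% of the reads in control replicates 1 and 2 and 0.177% and 0.799% in KD replicates 1 and 2. The widest Wilson 95% interval, that of KD replicate 2, ran from 0.788% to 0.811%.

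**Figure D2:**
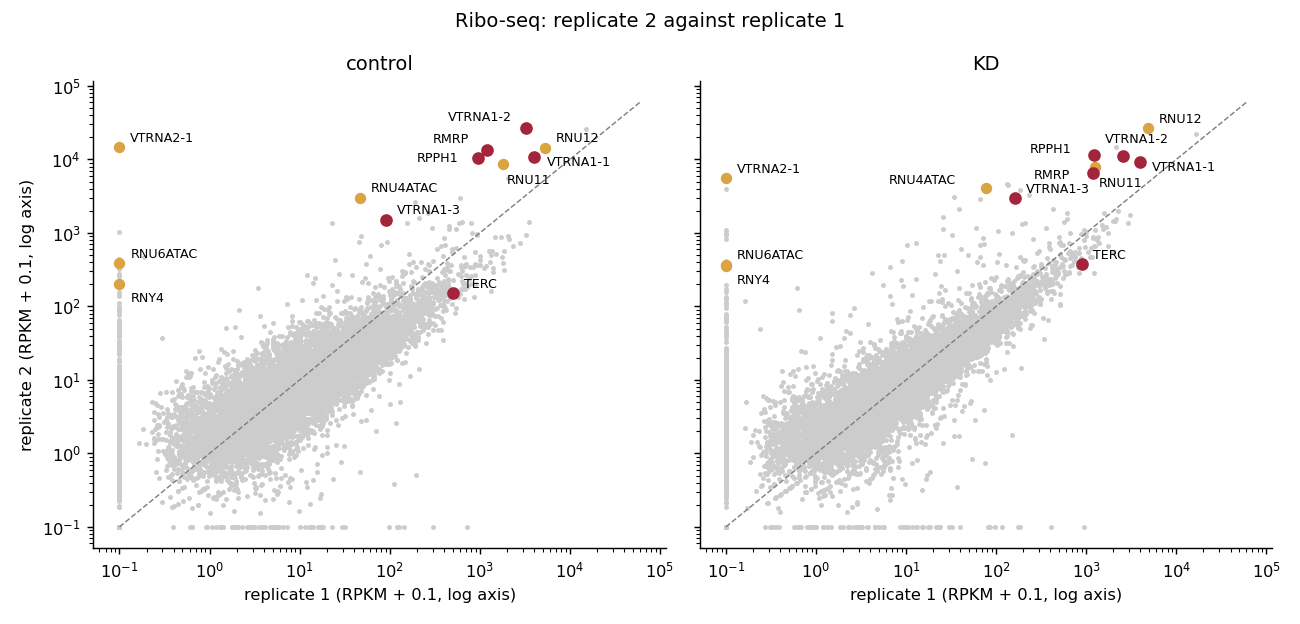
Ribo-seq RPKM + 0.1 in replicate 2 against replicate 1 on log axes, control at left and KD at right; red points are the members, yellow points other small structured RNAs, grey points all genes with a mean of at least 1 RPKM, and the dashed line marks equal levels. Of the members, TERC alone lies below the line, and VTRNA2-1 lies at 0 in replicate 1 of both conditions.

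Replicate 2 exceeded replicate 1 by 10.9-fold in control and 9.35-fold in KD for RPPH1, by 11.3- and 5.45-fold for RMRP, by 8.39- and 4.42-fold for VTRNA1-2, by 2.69- and 2.35-fold for VTRNA1-1, and by 16.6- and 18.3-fold for VTRNA1-3. For TERC the ratios were 0.301 and 0.417. VTRNA2-1 was at 14593 RPKM in control and 5579.9 RPKM in KD in replicate 2, and had no read in replicate 1 of either condition. The part of library preparation in these gaps was not tested.

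Against that spread no KD effect on a member could be resolved in Ribo-seq. None of 6 members passed, as none of 10880 genes did (0.0%; 43 genes had an unadjusted p under 0.05, none of them a member), and no member's groups were apart, against 10.7% of genes with both KD values higher and 7.12% with both lower. The estimates ran from -0.80 for VTRNA1-2 (95% interval -4.59 to 2.99) to 1.07 for TERC (-1.22 to 3.36) on the log2 scale, with adjusted p of 1.0 for each. Within replicate numbers, RPPH1 differed by 0.37 in replicate 1 and 0.15 in replicate 2, TERC by 0.84 and 1.30, VTRNA1-3 by 0.82 and 0.97, VTRNA1-2 by -0.34 and -1.26, VTRNA1-1 by -0.02 and -0.21, and RMRP by 0.00 and -1.05. These differences in replicate 1 do not use the library labelled KD replicate 2, whose ADAR level was that of a control. A fit without that library sets KD replicate 1 alone against both controls, takes the spread from the controls and carries the gap between replicate numbers. Its estimates were -1.35 for RPPH1, -1.74 for RMRP, 1.70 for TERC, -0.74 for VTRNA1-1, -1.88 for VTRNA1-2 and -1.20 for VTRNA1-3, and none passed.

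**Figure D3:**
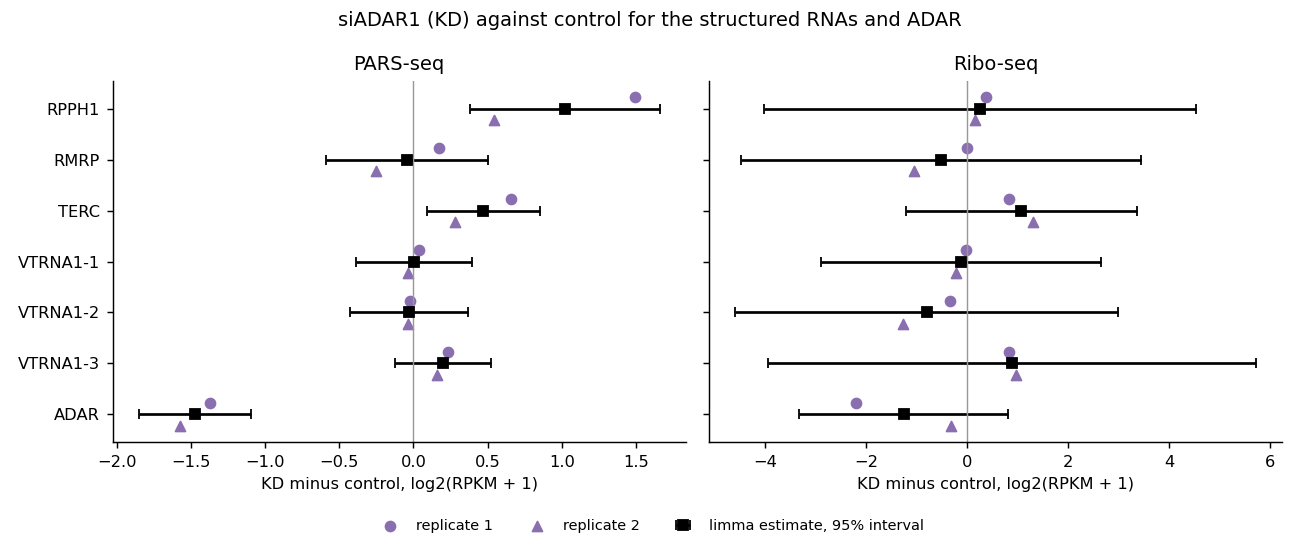
KD minus control on the log2(RPKM + 1) scale for each member and ADAR, PARS-seq at left and Ribo-seq at right; squares with bars are the limma estimate and its 95% interval, circles and triangles the difference within replicate 1 and 2. In PARS-seq the intervals of RPPH1, TERC and ADAR leave out 0 before adjustment, and the Ribo-seq intervals of all members span 0.

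Vault RNAs, TERC and RPPH1 were higher in Ribo-seq than in PARS-seq. In the fit over the 8 PARS-seq and Ribo-seq columns, 5 of 6 members were higher in Ribo-seq, where 9.58% of 11226 genes were. VTRNA1-2 had the largest log2 difference of all genes tested, 8.43 ± 0.70 (SE; adjusted p = 8.9e-05), and VTRNA1-1 the second largest, 8.29 ± 0.39 (adjusted p = 8.0e-06). VTRNA1-3 ranked 6th at 6.75 ± 1.04 (adjusted p = 0.0015) and TERC 33rd at 5.03 ± 0.43 (adjusted p = 9.7e-05). The median over all genes was -0.28, against 5.89 over the 6 members.

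For these 4 RNAs the call held when any 1 of the 8 columns was left out, with adjusted p between 7.3e-06 and 0.0080. RPPH1 passed narrowly, at 2.58 ± 0.88 (adjusted p = 0.048), and the call was lost without any 1 of the PARS-seq columns, without Ribo-seq control replicate 2 (1.81, adjusted p = 0.069) or without Ribo-seq KD replicate 2 (2.01, adjusted p = 0.12). It was also lost with no filter on low values (adjusted p = 0.17) and with a pseudocount of 0.1 (adjusted p = 0.0501). RMRP did not pass, at 0.14 ± 0.80 (adjusted p = 0.90, 95% interval -1.69 to 1.96), and its Ribo-seq values lay below its PARS-seq values in replicate 1 and above them in replicate 2. All 4 Ribo-seq values lay above all 4 PARS-seq values for each member but RMRP, as for 10.1% of genes. As linear ratios of the means, Ribo-seq over PARS-seq was 563 for VTRNA1-2, 365 for VTRNA1-1, 317 for VTRNA1-3, 42.1 for TERC, 9.72 for RPPH1 and 1.82 for RMRP. Assay and library preparation cannot be told apart in this contrast. Per the study's methods, PARS-seq RNA was fragmented and size selected to take out very short fragments, and the part of that step was not tested.

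**Figure D4:**
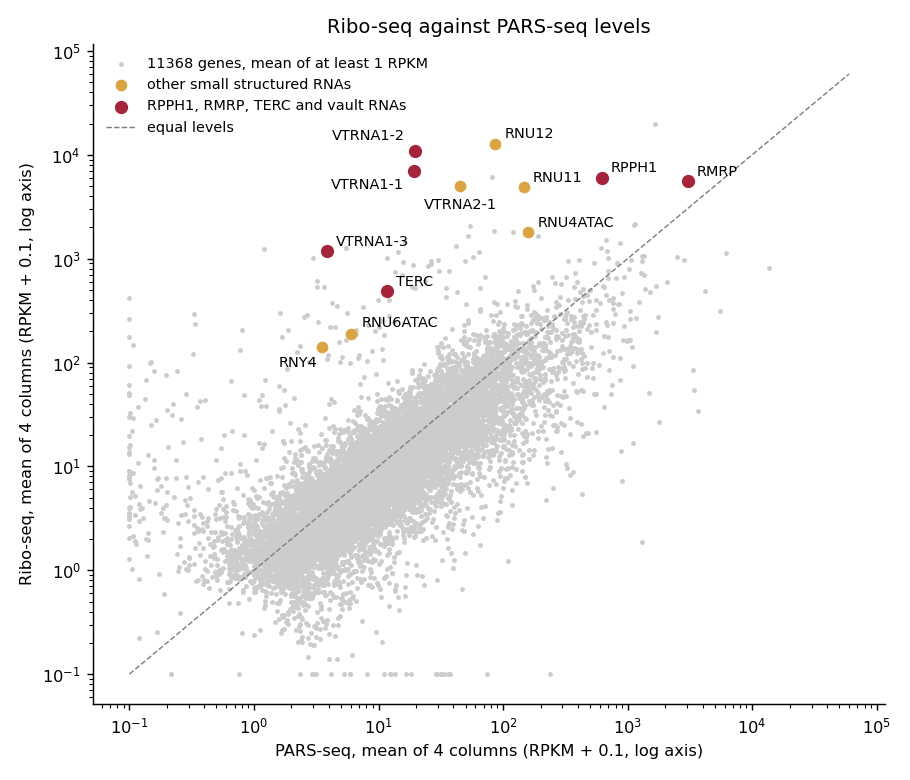
Mean RPKM + 0.1 of the 4 Ribo-seq columns against that of the 4 PARS-seq columns, log axes; red points are the members, yellow points other small structured RNAs, grey points genes with a mean of at least 1 RPKM over all columns, and the dashed line marks equal levels. VTRNA1-1 and VTRNA1-2 lie 365 and 563 times above equal levels, and RMRP lies close to the line at 1.82.

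By level per length, the order in PARS-seq was RMRP, RPPH1, then VTRNA1-2 and VTRNA1-1, then TERC, then VTRNA1-3. VTRNA1-2 and VTRNA1-1, with means of 19.5 and 19.0 RPKM, did not differ beyond their spread, and the other neighbours did not overlap in any column. The part of the size selection of PARS-seq fragments in this order was not tested. In Ribo-seq the means ran from 11001 RPKM for VTRNA1-2 through 6946 for VTRNA1-1, 6033 for RPPH1, 5563 for RMRP and 1182 for VTRNA1-3 to 485 for TERC, and each neighbouring pair overlapped between libraries. The order differed by replicate: in replicate 1 of both conditions VTRNA1-1 was above VTRNA1-2 and TERC above VTRNA1-3, and in replicate 2 of both conditions below them. In PARS-seq the highest column exceeded the lowest by 1.18-fold for VTRNA1-1, 1.19-fold for VTRNA1-2, 1.31-fold for VTRNA1-3, 1.41-fold for RMRP, 1.64-fold for TERC and 2.82-fold for RPPH1, and in Ribo-seq by between 2.73-fold for VTRNA1-1 and 32.4-fold for VTRNA1-3.

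The genes whose log2(RPKM + 1) followed each member best over the 10 columns were found among 11367 others. These columns share libraries and 3 assays, so the correlations are descriptions. For TERC they were the histone genes HIST1H3B (Pearson r = 0.997), HIST1H3A (0.996) and HIST1H2AM (0.996), whose messenger RNAs also lack a poly-A tail. VTRNA1-1 and VTRNA1-2 had each other as best match (0.995), followed by HIST1H1E (0.990) and SNORA1 (0.989) for VTRNA1-1 and by RNU12 (0.983) and MIR29A (0.981) for VTRNA1-2. VTRNA1-3 was followed by MIR29A (0.991), MIR130A (0.990) and the joint row of the MIR17 cluster (0.990). RPPH1 was followed by MIRLET7I (0.978), MIR23A (0.970) and SNORD93 (0.969), and RMRP by the joint row of SNORA70B and USP34 (0.992), TBL1XR1 (0.981) and the joint row of GAS5 and its snoRNAs (0.975).

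The proteins that bind or make these RNAs were counted from 7 lists of 69 genes, of which 62 were tested in PARS-seq. Of these 5 were higher and 4 lower in KD, 14.5% in all, against 15.5% of all genes, and none passed in Ribo-seq. Among RNase P and RNase MRP proteins 1 of 9 tested was higher and 1 lower. RPP25 was at 8.98 and 11.7 RPKM in control and at 16.3 and 19.2 RPKM in KD (log2 difference 0.73, adjusted p = 0.033). POP5 was at 65.1 and 74.6 RPKM in control and at 40.4 and 48.6 RPKM in KD (-0.64, adjusted p = 0.0499).

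Of 12 RNA polymerase III subunits tested, POLR3E alone passed. It was at 3.87 and 3.67 RPKM in control and at 10.8 and 10.2 RPKM in KD, a log2 difference of 1.27 (adjusted p = 0.0023), and RNA-seq gave 16.6 RPKM in control and 41.6 RPKM in KD. Of 20 initiation factors and regulators 3 were higher, SNAPC1, SNAPC2 and SNAPC4. They are subunits of SNAPc, the complex that binds the upstream promoter of genes such as RPPH1, RMRP and RN7SK, and its other subunits, named after the calls were seen, did not pass: the log2 difference was -0.47 for SNAPC3 (adjusted p = 0.10) and 0.17 for SNAPC5 (adjusted p = 0.57). SNAPC1 was at 6.15 and 6.92 RPKM in control and at 15.4 and 19.0 RPKM in KD (log2 difference 1.27, adjusted p = 0.0036). SNAPC2 was at 7.69 and 6.39 RPKM in control and at 15.2 and 12.2 RPKM in KD (0.87, adjusted p = 0.017). SNAPC4 was at 1.53 and 2.44 RPKM in control and at 3.23 and 3.93 RPKM in KD (0.63, adjusted p = 0.048).

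Of 8 signal recognition particle proteins and receptor subunits 2 were lower. SRPR, the receptor subunit that docks the particle at the membrane, was at 34.7 and 31.8 RPKM in control and at 16.5 and 17.5 RPKM in KD (log2 difference -0.93, adjusted p = 0.0094), and SRP72, which binds 7SL, was at 26.0 and 19.9 RPKM in control and at 15.3 and 11.8 RPKM in KD (-0.72, adjusted p = 0.047). Of 2 vault proteins PARP4 was lower, at 17.4 and 14.4 RPKM in control and at 10.3 and 7.90 RPKM in KD (-0.75, adjusted p = 0.032). None of 6 proteins of the 7SK particle and P-TEFb passed: HEXIM1, which holds P-TEFb inactive, was at 43.2 and 57.1 RPKM in control and at 55.9 and 65.5 RPKM in KD, and MEPCE, which caps 7SK, was at 18.2 and 19.6 RPKM in control and at 16.3 and 19.6 RPKM in KD. Of 6 telomerase and H/ACA proteins with a row of their own 5 were tested, and TERT, with a PARS-seq mean of 0.042 RPKM, was under the filter. None of the 5 passed: NOP10 was at 665 and 527 RPKM in control and at 429.5 and 423 RPKM in KD (adjusted p = 0.15), and NHP2 at 41.2 and 46.8 RPKM in control and at 39.4 and 55.2 RPKM in KD. CCNT1, DKC1, MVP, POLR3F and RPP21 stand in joint rows with another gene and were not counted. Of these rows, that of DKC1, the core protein of H/ACA particles and telomerase, with the snoRNAs SNORA36A and SNORA56, was higher in KD in PARS-seq only. In RNA-seq the row was at 48.8 RPKM in control and 48.2 RPKM in KD, and in Ribo-seq it did not pass. In PARS-seq it was at 73.3 and 116 RPKM in control and at 156 and 189 RPKM in KD (log2 difference 0.89, adjusted p = 0.046), and its reads cannot be divided among the 3 genes here. That call was lost in 4 of 10 alternatives, among them those without control replicate 1 (adjusted p = 0.17) and without KD replicate 2 (adjusted p = 0.090). The rows of CCNT1, MVP and POLR3F did not pass (adjusted p = 0.41, 0.14 and 0.53), and that of RPP21 was listed at 0 in every column. The calls of POLR3E, SNAPC1 and SRPR were kept under each of 10 alternatives added after the data were seen, with adjusted p up to 0.048. SNAPC2 lost its call with no filter on low values (adjusted p = 0.085), PARP4, RPP25 and SRP72 lost theirs in 3 of the 10, among them those without control replicate 1 and without KD replicate 2, and POP5 and SNAPC4 lost theirs in 6 of the 10.

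**Figure D5:**
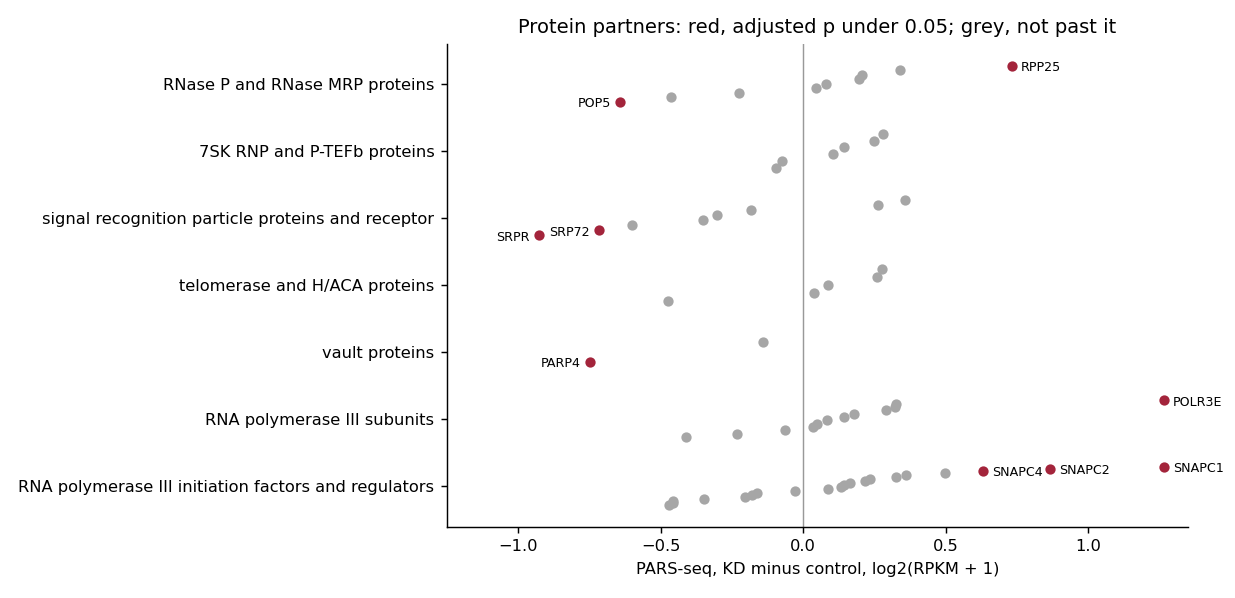
PARS-seq KD minus control on the log2(RPKM + 1) scale for each tested protein gene of the 7 lists with a row of its own, 1 point per gene, red where the adjusted p is under 0.05. SRPR is lowest at -0.93, and SNAPC1 and POLR3E are highest at 1.27.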

How the data were processed

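Values were taken from 1 table of RPKM that the authors deposited, with 10 columns for 14 samples and no column of another sample. Per the study's methods, Bowtie2 (local alignment, hg19, that is GRCh37) placed the reads, the authors kept unique ones, counted them over RefSeq transcripts with coverageBed without a strand option, and converted counts to RPKM; cutadapt is named in the processing notes. Reads from a gene and from an overlapping gene on the other strand can therefore not be told apart. Each PARS-seq column is the authors' mean over an S1 and a V1 library and is given with no SD. Tables of PARS-seq read starts per transcript were not used, because their transcript IDs were not paired with a member, and read starts in genome coordinates were not analysed here.

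The 3 comparisons across genes were fitted in R 4.3.3 with limma 3.58.1 (eBayes with trend) to log2(RPKM + 1). Genes whose mean reached 1 RPKM over the columns fitted were tested, with Benjamini-Hochberg adjustment over all of them and calls at an adjusted p under 0.05. Fold changes are on that scale, which understates changes of low genes. The study calls its replicates biological and does not say whether they were separate cultures, so p-values measure the spread between these samples, which may be technical. The Ribo-seq against PARS-seq fit had condition as a covariate. RNA-seq had no test. Read counts behind RPKM values were recovered as value times length times total, with the smallest total that made at least 0.9 of the best count of small RNA genes whole, a rule set after 1 column had first given a multiple of its total: between 81.0% and 89.3% of the values checked per column came out whole within the last printed digit, some RefSeq lengths being other than those used. Each member's length was chosen as the shortest that made all its RNA-seq and Ribo-seq values whole. Its values were therefore bound to come out whole, and the distance of at most 4.1e-06 of a read over these 36 values is no check of the recovery. Intervals cover counting error only. Sequences came from GENCODE v44lift37, and identities from global alignment in Biopython 1.88. The fits were tried on simulated data with independent noise and no effect of the replicate number, so their calls under such an effect were not tested. The recovery was tried on simulated counts.

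The genes named were all members, ADAR, genes of fixed lists that were called (otherwise the 2 with the highest mean), neighbours, other small structured RNAs, and the 3 genes most correlated with each member. Members and lists were chosen with earlier results of these data known. Alternatives were other pseudocounts, no filter, median centring, no mean trend, the replicate number as a block, and leaving out each column.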

Additional observations from a re-analysis of the deposited data

Results flagged for a closer look

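RPPH1 moved in opposite directions in 2 assays. Its KD to control ratio of mean RPKM was 1.95 in PARS-seq, with both KD values above both controls, and 0.357 in RNA-seq, from 102 control and 27 KD reads. The difference between the assays was not tested, and RNA-seq had 1 library per condition. RMRP had a similar RNA-seq ratio of 0.391, and its PARS-seq ratio was 0.986. At 7.34 and 2.62 RPKM the RNA-seq level of RPPH1 was a small part of its PARS-seq level, and the part of the poly-A selection in either ratio was not tested.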

How the results depend on the processing

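In PARS-seq 1726 genes were called, with 546 when no filter on low values was used and 5654 with the replicate number as a block; of the 546, 255 were among the 1726. The number of members called was 1, and became 0 with no filter, 0 with centred columns and 2 with the block, where TERC joined RPPH1 (adjusted p = 1.6e-04). Leaving out 1 column at a time gave 1181 to 2568 genes and 0 to 1 members. In Ribo-seq no gene was called, 143 were called with the block, no member among them, and 0 to 24 when 1 column was left out, with the 24 found without the library labelled KD replicate 2. For Ribo-seq against PARS-seq 4395 genes and 5 members were called, and 3006 to 5344 genes and 4 to 5 members without 1 column; the cause of these shifts was not tested. The replicate numbers mark no shared batch in the labels. The control difference between replicates 1 and 2 correlated with the KD difference over genes at r = 0.66 in PARS-seq and r = 0.81 in Ribo-seq, with only a pair of numbers in each. Of 60 alternative values for members in PARS-seq, 56 kept their side of the threshold; in Ribo-seq all 60 did, and for Ribo-seq against PARS-seq 76 of 84 did, the 8 others all being RPPH1. No called value changed sign. In RNA-seq the log2 difference of RPPH1 ran from -1.45 with a pseudocount of 0.1 to -0.70 with 5, and that of RMRP from -1.31 to -0.56, each below 0 throughout. TERC and the vault RNAs had at most 3 reads in RNA-seq, too few for a ratio.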

Other observations

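Among 6 other small structured RNAs, some were also higher in Ribo-seq than in PARS-seq. RNU11 and RNU12, the U11 and U12 RNAs of the minor spliceosome, were higher in Ribo-seq than in PARS-seq by 4.59 (adjusted p = 0.0011) and 6.85 (adjusted p = 8.4e-05) on the log2 scale, and 2 of the 6 with a row of their own passed, where 9.58% of all genes tested were higher in Ribo-seq. RNU12 was at 5312 and 14439 RPKM in control and at 4860 and 26711 RPKM in KD in Ribo-seq. RNU4ATAC was at 46.4 and 2998 RPKM in control and at 76.7 and 4078 RPKM in KD, and did not pass (adjusted p = 0.43). RNY4, a Y RNA, and RNU6ATAC were listed at 0 in Ribo-seq replicate 1 of both conditions and at 205 and 385 RPKM in control replicate 2. None of the 6 passed between KD and control; RNY4 had the largest PARS-seq difference among them, -1.10 (adjusted p = 0.061), from 3.54 and 6.43 RPKM in control to 2.87 and 0.906 RPKM in KD.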
